A study of Arabidopsis thaliana with 12 samples.

Results

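Transcript levels in the roots and in the shoots of caesium-exposed plants of Arabidopsis thaliana, a cress that serves as the model plant of the field, were compared. The 6 arrays compared were chosen by sample title, 3 labelled cs-root and 3 labelled cs-shoot, of 12 arrays in all. The other 6 arrays were roots and shoots of plants labelled control, 3 of each. The series title names caesium-137, a beta- and gamma-emitting fission product, at low chronic exposure. Groups are called Cs and control below, and replicate numbers are those of the titles. Every sample carried the label Developmental stage 1.0 and was total RNA of a whole organ. Plant line, dose, length of exposure and number of plants pooled per array are not stated in the labels. The labels do not say whether replicates are separate plants, so each p-value measures the spread between these arrays, which may be technical. In RNA of a whole organ, fewer cells of a type and less RNA per cell cannot be told apart.

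Shoots and roots divide the work of a plant. Leaf cells carry green plastids, whose photosystems, antenna proteins and carbon-fixing enzymes are made partly from the nuclear genome and partly from the plastid's own genome. Roots take up water and ions through the epidermis and its root hairs, seal their vascular tissue with the Casparian strip, and make many secreted class III peroxidases and defence compounds. Caesium ions enter plants mainly by routes that also carry potassium.

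Each array was an Affymetrix ATH1 GeneChip, on which a probe set, a group of short oligonucleotides, reads out a transcript. Its deposited value, the MAS5 signal, is a linear intensity, and each array had been scaled to the same trimmed mean. Differences are given as log2(signal + 11) in Cs root minus that in Cs shoot, so that negative values mean a higher level in shoot. The added 11 compresses the difference of dim probe sets. A probe set is written as called when its Benjamini-Hochberg adjusted p in limma, a linear model fitted across all 15508 tested probe sets and all 12 arrays, was under 0.05. Triplets of signals follow replicates 1, 2 and 3. Genes were read only through probe sets that name 1 gene in the platform annotation. A listed gene without one may still be on the array. A probe set was tested if its mean reached the 40th percentile in at least 1 organ. Some genes were therefore tested only through the organ where they are high, which partly fixes the direction of their call.

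The organ labels were checked against marker genes. Of 16 listed shoot loci 4, and of 18 listed root loci 4, had a probe set that names 1 gene in the annotation. All 3 tested shoot markers were higher in the Cs shoots, and all 4 root markers were higher in the Cs roots, beside 58.0% of all tested probe sets called in either direction. The summed signal of the 4 shoot markers with such a probe set was 9075, 8200 and 6813 in the Cs shoots against 272, 629 and 147 in the Cs roots. The summed signal of the 4 root markers was 4782, 4556 and 5201 in the Cs roots against 381, 552 and 893 in the Cs shoots. No library went against its label, but Cs root 2 had the most shoot-marker signal among the Cs roots, and Cs shoot 3 the most root-marker signal among the Cs shoots. RCA alone had 505 on Cs root 2, and PYK10 alone 779 on Cs shoot 3. Of the 3 tested shoot markers RCA and PRK were highest of the Cs roots on Cs root 2, and FMA was lowest, at 22.9, 18.5 and 30.95. Of the 4 root markers 3 were highest of the Cs shoots on Cs shoot 3, and EXPA7 was lowest, at 42.2, 26.0 and 21.7. Over tested probe sets, log2 signals correlated at 0.940 and 0.934 between Cs shoot 1 and the other Cs shoots, against 0.974 between Cs shoots 2 and 3. Among the Cs roots the correlations lay between 0.943 and 0.950. Between the organs they lay between 0.418 and 0.583, the highest being that of Cs root 2 with Cs shoot 3. The arrays' median signals ranged from 41.1 to 49.6. Precision is limited by having 3 arrays a group.

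Most tested probe sets differed between the organs. Of 15508 tested probe sets, 9000 (58.0%) were called, 5596 (36.1%) higher in root and 3404 (21.9%) higher in shoot. In 10069 probe sets (64.9%), called or not, the 3 root arrays all lay on one side of the 3 shoot arrays. Root calls were more numerous, by a margin that moved with the scaling, with 5228 higher in root and 3717 higher in shoot after quantile normalization and 4594 and 3838 after array-median centring. Large differences were more often toward shoot. At least 4-fold differences counted 906 higher in root and 1225 higher in shoot, at least 16-fold 93 and 249, and at least 32-fold 19 and 70. The median over all tested probe sets was 0.22, and 0.10 after each array was centred on its median, so the values of gene groups below are to be read against 0.22. Counts of called group members are likewise to be read against 36.1% higher in root and 21.9% higher in shoot. The median standard error of a difference was 0.20, which gives a median 95% half-width of 0.43. In 1556 of the root calls the shoot signal lay under the level used for the filter (27.97 in shoot), and in 1334 of the shoot calls the root signal lay under it (31.23 in root). For these the size depends on the added 11. Leaving out Cs root 2 and Cs shoot 3 together gave 7428 calls, 4526 higher in root and 2902 higher in shoot. The counts of at least 16-fold differences were then 118 and 317. Without Cs shoot 1 the 16-fold count was 62 higher in root and 255 higher in shoot.

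**Figure D1:**
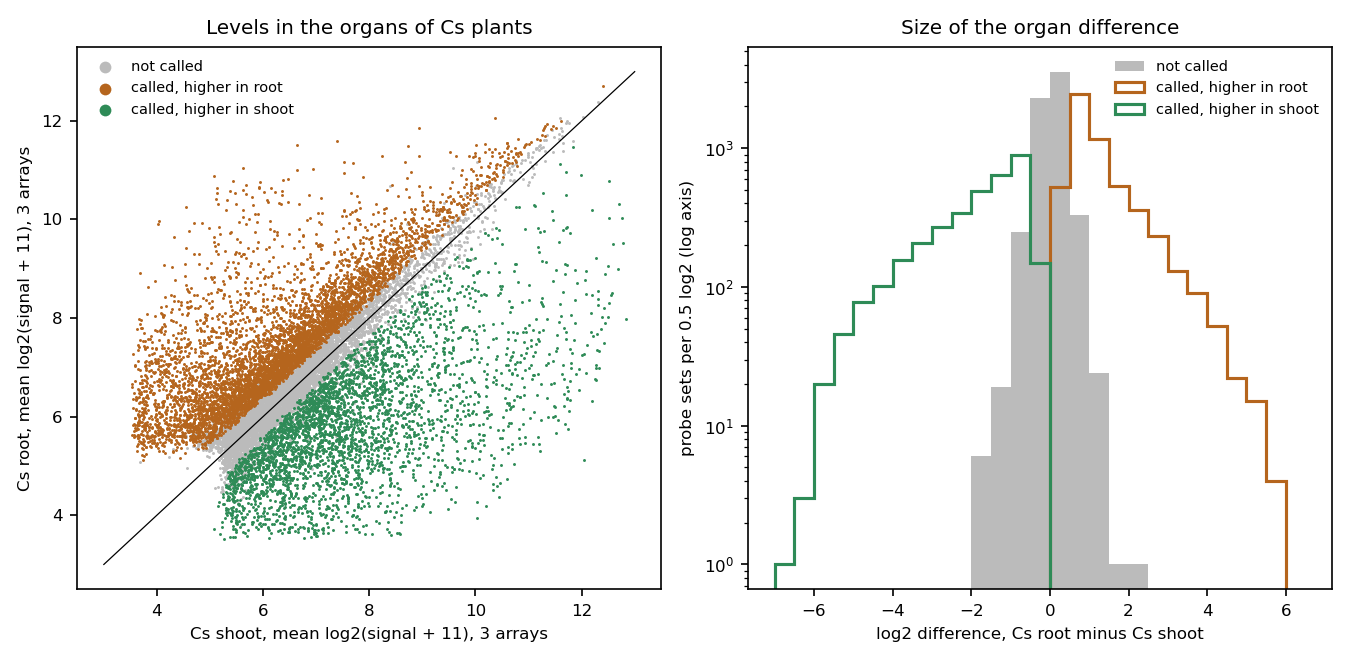
Left, the mean log2(signal + 11) of the 3 Cs root arrays against that of the 3 Cs shoot arrays, 1 point per tested probe set (15508), with the line of equal levels. Right, the number of probe sets per 0.5 log2 of difference (log axis). The calls higher in root (5596) pile up near 1. Those higher in shoot (3404) include more large differences, with 70 of at least 32-fold against 19 higher in root.

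Nuclear genes of the photosynthetic apparatus were higher in shoot. All 10 nuclear genes of the light-harvesting and photosystem group were called higher in shoot, with a median of -4.74 against 0.22 over all tested probe sets, of which 21.9% were called in that direction. PSAN, a peripheral subunit of photosystem I, had signals of 3381, 3327 and 3354 in the Cs shoots and 46.3, 178 and 39.1 in the Cs roots. Its shoot arrays differed little, and Cs root 2 lay highest among the roots without reaching the shoots. The difference was -5.37 ± 0.41 (SE, n = 3 a group; adjusted p = 2.44e-07).

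LHCB4.2 encodes a form of CP29, a minor antenna protein of photosystem II. Its signals were 5011, 4781 and 4949 in the Cs shoots and 75.7, 449.6 and 46.6 in the Cs roots, a difference of -5.22 ± 0.57 (adjusted p = 5.98e-06). The organs were far apart, and Cs root 2 was again the high root array. LHCB4.1, another CP29 form, had 5148, 5658 and 5046 in shoots and 156, 554 and 101 in roots. LHCB4.3 differed less, at -1.89 ± 0.45, and its shoot signals of 354, 100.4 and 119.8 spread more, with Cs shoot 1 highest. The photosystem I subunit PSAE-1 gave -4.78 ± 0.53, and among photosystem II proteins PSBY gave -5.03 ± 0.36, PSBW -3.99 ± 0.49 and the assembly factor PSB27 -4.70 ± 0.31. The light-harvesting-like proteins LIL3:1 and LIL3:2, which act in chlorophyll synthesis, gave -5.16 ± 0.33 and -3.49 ± 0.23. In 9 of the 10 genes Cs root 2 was the highest Cs root array, against 29.7% of all tested probe sets. Without Cs root 2 and Cs shoot 3 the group's median was -5.43.

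Transcripts of the plastid genome differed in the same direction. Of 69 plastid-encoded genes with a probe set of their own 68 were tested, and 66 were called higher in shoot, 0 higher in root and 2 neither way. Their median was -3.08, and -3.54 without Cs root 2 and Cs shoot 3. The gene atpH, for the ring subunit of the plastid ATP synthase, had signals of 2399, 2671 and 2680.3 in the Cs shoots and 102, 286 and 6.38 in the Cs roots. The 3 roots spread widely, with Cs root 2 high and Cs root 3 low, and none reached a shoot. The difference was -4.95 ± 0.71 (adjusted p = 7.01e-05). The core antenna gene of photosystem II, psbC, gave -4.77 ± 0.41, the photosystem I gene psaC -4.80 ± 0.64, and ndhJ, of the plastid NDH complex, -4.82 ± 0.55. Cs root 2 was the highest Cs root array in 63 of the 68 genes. The primer that labelled the RNA is not stated in the sources used here.

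Most tested genes of a hand-written Calvin cycle list followed. In the Calvin cycle list 5 genes were tested, of which 4 were higher in shoot and 1 higher in root. The shares over all tested probe sets were 21.9% and 36.1%. PRK, phosphoribulokinase, had signals of 3599.8, 2774 and 2397 in the Cs shoots and 50.8, 102 and 45.1 in the Cs roots, a difference of -5.30 ± 0.35 (adjusted p = 6.65e-08). SBPASE, the bisphosphatase that commits carbon to regenerating the CO2 acceptor, had 3230.0, 2248 and 1874 and 33.7, 116 and 29.7, a difference of -5.29 ± 0.36 (adjusted p = 9.51e-08). In both genes Cs shoot 1 was the highest shoot and Cs root 2 the highest root, and the organs did not overlap. Rubisco activase, RCA, gave -4.62 ± 0.58, with roots at 196, 505 and 68.6. The listed locus AT1G56190 differed by -1.40 ± 0.21, with 370.2, 245 and 265 in roots. The listed locus AT1G63290 went the other way, at 0.56 ± 0.14 (adjusted p = 0.00389). Whether its product acts in the plastid was not checked, so it does not show a carbon-fixing enzyme higher in root.

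Photorespiration, which recovers carbon lost when Rubisco takes up oxygen, had 5 tested genes. Of these 3 were higher in shoot, 1 higher in root and 1 neither way, beside 21.9% and 36.1% of all tested probe sets. HPR, the peroxisomal hydroxypyruvate reductase, had signals of 3559.9, 2554 and 2037 in the Cs shoots and 45.4, 92.6 and 33.1 in the Cs roots. Every shoot lay far above every root, and the difference was -5.38 ± 0.35 (adjusted p = 6.65e-08). On the same list AT1G32470 and AT2G35120 opposed each other. AT1G32470 had 1788, 1410.0 and 1437 in shoots and 62.2, 95.5 and 48.1 in roots, a difference of -4.32 ± 0.26 (adjusted p = 3.62e-08). AT2G35120 had 168, 164 and 206 in shoots and 1144, 980.0 and 1083 in roots, a difference of 2.51 ± 0.14 (adjusted p = 1.92e-08). The organs did not overlap in either gene, and their order was opposite.

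Pigment synthesis was also higher in shoot. Of 10 tested genes of chlorophyll and carotenoid synthesis 9 were higher in shoot and 1, HEMA2, higher in root, with a median of -3.61. Over all tested probe sets 21.9% were higher in shoot and 36.1% higher in root. PORB, a light-dependent protochlorophyllide reductase, had signals of 623, 3591 and 3191 in the Cs shoots and 22.0, 240.0 and 68.5 in the Cs roots. Cs shoot 1 stood well below the other shoots and still above all roots. The difference was -4.48 ± 0.79 (adjusted p = 0.000369). HEME2 and HEME1, uroporphyrinogen decarboxylases of the shared porphyrin route, gave -4.04 ± 0.18 and -3.44 ± 0.19. CHLI2, a subunit of magnesium chelatase at the branch to chlorophyll, gave -3.96 ± 0.27, and CHLM, the following methyltransferase, -3.78 ± 0.18. AT1G74470, annotated as geranylgeranyl reductase, which makes the chlorophyll side chain, gave -4.13 ± 0.39. The earlier steps differed less, with -1.54 ± 0.13 for GSA1 and -2.10 ± 0.12 for HEMB1. HEMA2, a form of glutamyl-tRNA reductase at the head of the route, had 69.8, 70.0 and 68.4 in shoots and 94.0, 123 and 104 in roots, at 0.55 ± 0.13 (adjusted p = 0.00285). Lycopene cyclase, LYC, gave -1.43 ± 0.19.

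Of 29 listed genes of the leaf surface 5 had a probe set that names 1 gene, and 3 passed the filter. All 3 were called higher in shoot, beside 21.9% of all tested probe sets. STOMAGEN and FMA, dim in root, passed the filter through their shoot signal, so the count is partly fixed by the filter. STOMAGEN, a peptide from the leaf interior that promotes stomata, had signals of 284, 229.5 and 255 in the Cs shoots and 1.35, 1.47 and 1.07 in the Cs roots. Its roots were all near the bottom of the scale, Cs root 2 included, and the difference was -4.44 ± 0.13 (adjusted p = 1.27e-09). FMA, a factor of the last step of guard cell formation, was dim in both organs, at -0.83 ± 0.22. The stomatal lineage factors SPCH and MUTE did not pass the filter, with Cs shoot signals between 17.8 and 59.6 for SPCH and between 2.58 and 4.91 for MUTE.

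Of the 12 named genes with the largest differences toward shoot, 8 lay outside those groups. AT2G41090 had signals of 2035, 2646 and 2494 in the Cs shoots and 3.39, 127 and 20.5 in the Cs roots. The difference was -5.91 ± 0.60 (adjusted p = 3.27e-06). ECS1 had 4615, 4796 and 4561 in shoots and 22.3, 518 and 17.8 in roots, at -5.87 ± 0.83 (adjusted p = 5.96e-05). In both genes the shoots lay close together, and Cs root 2 lay far above the other roots and below every shoot. Without Cs root 2 and Cs shoot 3 the differences were -6.77 and -7.25. The other 6, AT1G09310, AT5G03350, AT3G05730, AT1G65230, AT2G10940 and AT1G23130, lay between -5.63 and -5.34. The annotation used here names these by locus only. Cs root 2 was the highest Cs root array in each of the 12.

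**Figure D2:**
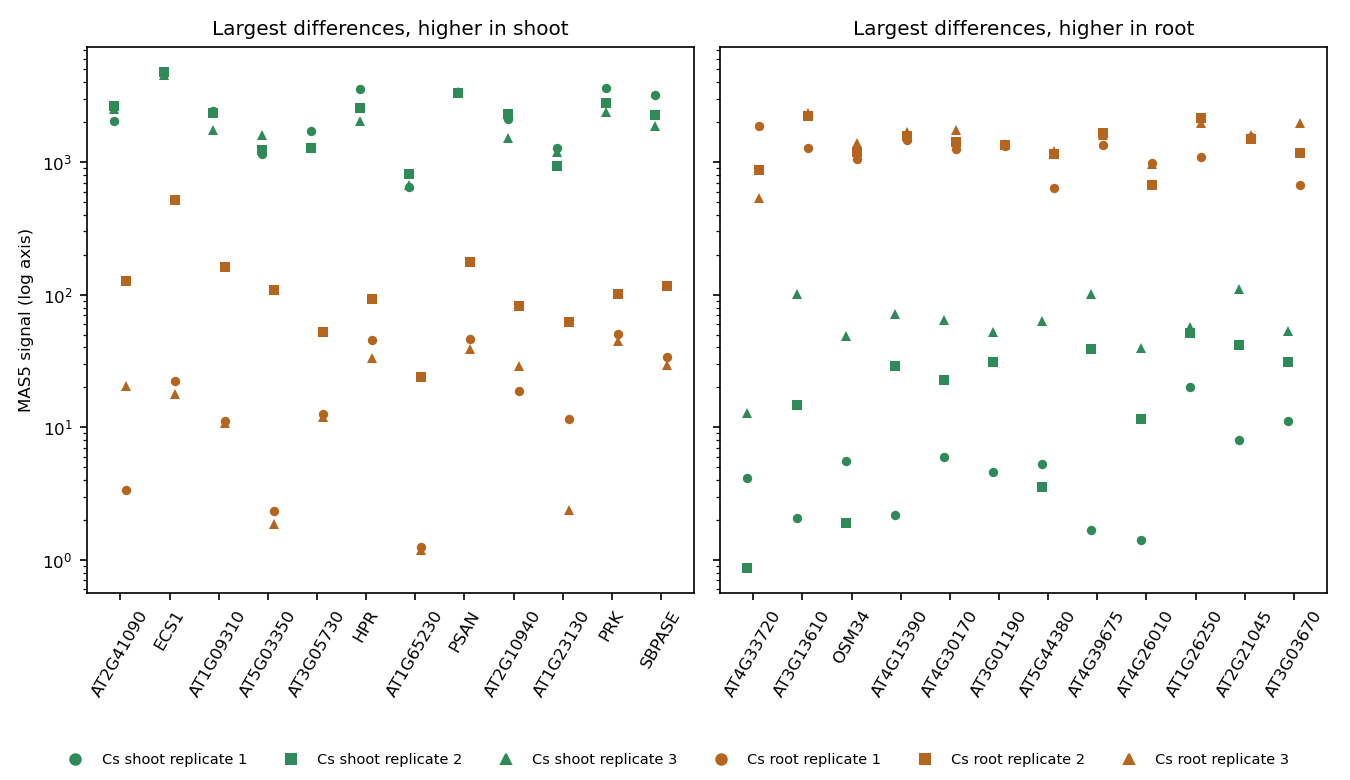
MAS5 signals (log axis) of the 12 named genes with the largest difference toward shoot (left) and toward root (right) on each of the 6 Cs arrays, shoots in green and roots in brown, with a marker shape per replicate number. The organs do not overlap in any of the 24 genes; Cs root 2 (squares) is the highest root on the left, and Cs shoot 3 (triangles) is the highest shoot on the right.

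Most tested class III peroxidases were higher in root. These secreted haem enzymes use hydrogen peroxide to cross-link or loosen the cell wall. Of 55 listed genes with a probe set of their own 39 were tested, and 30 were higher in root, 4 higher in shoot and 5 neither way, with a median of 2.29. Of all tested probe sets, 36.1% were called higher in root. Members high in root alone passed the filter through root, so the count is partly fixed by the filter. AT4G30170 had signals of 5.97, 22.9 and 64.3 in the Cs shoots and 1264, 1422 and 1761 in the Cs roots. The roots lay close together, Cs shoot 3 was the highest shoot and Cs shoot 1 the lowest, and the difference was 5.40 ± 0.49 (adjusted p = 1.07e-06).

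AT3G01190 had 4.59, 30.9 and 52.1 in shoots and 1329, 1349 and 1365 in roots, at 5.30 ± 0.47 (adjusted p = 9.57e-07). AT4G26010 had 1.40, 11.5 and 39.8 in shoots and 983, 669 and 961 in roots, at 5.17 ± 0.38. AT3G03670 had 11.2, 31.2 and 53.5 in shoots and 668, 1170.0 and 1967 in roots, at 4.89 ± 0.43. Roots and shoots were apart in each, while the roots of AT3G03670 spread more than those of AT3G01190. Among peroxidases with a symbol, Prx37 gave 4.49 ± 0.47. PRXR1 was bright in both organs, with 2747, 3325 and 3261 in shoots and 3701, 4025 and 4543 in roots, and differed by only 0.39 ± 0.13 (adjusted p = 0.0209). The peroxidase with the largest difference toward shoot was AT1G71695, with 269, 405 and 379.8 in shoots and 56.6, 59.7 and 62.9 in roots, at -2.34 ± 0.24 (adjusted p = 3.09e-06). Cs shoot 3 was the highest Cs shoot array in 22 of the 39 genes, against 32.5% of all tested probe sets.

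Other genes with the largest differences toward root belonged to several functions. AT3G13610, annotated as F6'H1, makes the precursor of the coumarin scopoletin, which roots release. Its signals were 2.07, 14.7 and 102 in the Cs shoots and 1285, 2236 and 2346 in the Cs roots. Cs shoot 3 lay far above the other shoots and Cs root 1 below the other roots, with no overlap between organs. The difference was 5.82 ± 0.67 (adjusted p = 9.75e-06), and 6.58 without Cs root 2 and Cs shoot 3. OSM34, an osmotin-like protein of the pathogenesis-related class, had 5.53, 1.90 and 48.4 in shoots and 1058, 1186 and 1389 in roots, at 5.70 ± 0.61 (adjusted p = 4.7e-06). AT4G33720, named by locus only, differed by 5.90 ± 0.52, with 4.14, 0.863 and 12.8 in shoots and 1868, 867 and 537 in roots. The remaining loci, AT4G15390, AT5G44380, AT4G39675, AT1G26250 and AT2G21045, lay between 4.98 and 5.49.

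The tested root hair genes were higher in root. Of 30 listed loci 7 had a probe set that names 1 gene, and 6 were tested. All 6 were called higher in root, beside 36.1% of all tested probe sets, with a median of 2.33. Members dim in shoot, such as GH9C1, passed the filter through their root signal, so the count is partly fixed by the filter. EXPA7 and EXPA18, expansins that loosen the wall of the growing hair, gave 1.44 ± 0.34 and 1.65 ± 0.22. EXPA18 had signals of 33.5, 32.2 and 37.8 in the Cs shoots and 171, 82.7 and 158 in the Cs roots. GH9C1, a cellulase-type hydrolase of the hair, had 7.20, 18.2 and 10.5 and 165, 89.0 and 98.9, at 2.47 ± 0.24 (adjusted p = 1.98e-06). In both genes Cs root 2 was the lowest root and still above every shoot. The largest values were those of AT1G30870, 3.82 ± 0.30, also on the peroxidase list, and AT3G54580, 3.59 ± 0.31. Cs root 2 was the lowest Cs root in 6 of 6 genes, against 32.3% of all tested probe sets. Control root 2 was the lowest control root in 1 of 6.

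The Casparian strip list had 3 tested genes, all higher in root beside 36.1% of all tested probe sets, with a median of 1.42. GSO1, a receptor kinase that keeps the barrier closed, had 36.3, 36.1 and 43.6 in the Cs shoots and 115, 119.8 and 129.6 in the Cs roots. The groups were well apart, at 1.42 ± 0.17 (adjusted p = 1.7e-05). AT2G39430 gave 1.65 ± 0.18. AT1G14890 gave 0.57 ± 0.22 (adjusted p = 0.0389), a call that was lost without any 1 of 5 Cs arrays (all but Cs shoot 3), with adjusted p between 0.0502 and 0.14. It was also lost under quantile normalization (0.0564) and array-median centring (0.0973).

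Genes bright in both organs also differed. PYK10, the main beta-glucosidase of the root's ER bodies, had signals of 302, 472 and 779 in the Cs shoots and 3606, 3564 and 3952 in the Cs roots. The roots lay close together, Cs shoot 3 was the highest shoot, and the difference was 2.92 ± 0.28 (adjusted p = 1.71e-06). The carbohydrate-binding jacalin-related lectins had 4 tested genes, of which 3 were higher in root and 1 higher in shoot. JAL34 had 90.1, 231 and 245 in shoots and 2478, 2374 and 2052 in roots, at 3.64 ± 0.33 (adjusted p = 1.24e-06). JAL33 had 122, 115 and 138 and 1471, 1485 and 1178, at 3.34 ± 0.17, with tight arrays in each organ. JAL23 was dim and went the other way, at -1.69 ± 0.30. AT4G22212 had 18.8, 129.7 and 225 in shoots and 3029, 2664 and 3014 in roots, at 4.87 ± 0.73, so its shoot mean rested mostly on Cs shoots 2 and 3. AT1G04040 gave 2.94 ± 0.25 and DI21, a drought-induced gene, 2.90 ± 0.26.

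Several enzyme families had members called in each direction, as did all tested probe sets, with 36.1% higher in root and 21.9% higher in shoot. Of 10 tested beta-glucosidases 5 were higher in root, 3 higher in shoot and 2 neither way, with a median of 0.40. BGLU46, which acts on lignin precursors stored as glucosides, had 5.33, 13.1 and 14.2 in the Cs shoots and 193, 385 and 291 in the Cs roots, at 3.75 ± 0.32 (adjusted p = 6.41e-07). BGLU33 had 238, 257 and 224 and 8.44, 16.4 and 1.69, at -3.73 ± 0.26 (adjusted p = 1.25e-07). The organs were apart in both genes and in opposite order. BGLU44 gave -2.72 ± 0.57, with Cs shoot 1 at 329 well below the other shoots at 1279 and 1031.

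Of 21 tested expansins and xyloglucan endotransglucosylases, which remodel the growing wall, 12 were higher in root, 4 higher in shoot and 5 neither way. EXPA8 had signals of 514, 563 and 774 in the Cs shoots and 20.5, 14.2 and 7.04 in the Cs roots, at -4.67 ± 0.23 (adjusted p = 8.47e-09). It was the expansin furthest toward shoot, with every shoot far above every root. XTH19 and XTH18, close relatives, gave 2.88 ± 0.51 and 2.74 ± 0.29, with Cs root 1 the highest root in both. XTH32 gave -2.67 ± 0.47, with shoots at 821, 248 and 279 and Cs shoot 1 standing high. Of 15 tested trichome birefringence-like genes, which acetylate wall polysaccharides, 10 were higher in root, 3 higher in shoot and 2 neither way. TBL36 led toward root at 2.84 ± 0.30. TBL26 led toward shoot at -1.69 ± 0.60 (adjusted p = 0.0283), with shoots at 366, 71.2 and 57.8. That call was lost without Cs shoot 1 (-0.91, adjusted p = 0.118 in limma), without Cs root 2 (-1.54, adjusted p = 0.0815) and without Cs root 3 (-1.67, adjusted p = 0.0637).

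The UDP-glycosyltransferases, which attach sugars to small molecules, had calls in both directions. Of 29 tested genes 11 were higher in root, 10 higher in shoot and 8 neither way, with a median of -0.28, beside 36.1% higher in root and 21.9% higher in shoot over all tested probe sets. UGT88A1 had 1197, 981 and 992 in the Cs shoots and 65.0, 80.6 and 58.7 in the Cs roots, at -3.76 ± 0.18 (adjusted p = 9.32e-09). UGT76B1, which glucosylates isoleucic acid, a defence signal, had 0.895, 2.37 and 9.35 and 138, 234 and 203, at 3.75 ± 0.26 (adjusted p = 1.11e-07). Within a single subfamily UGT71C1 gave 3.68 ± 0.27 and UGT71C4 -1.09 ± 0.16. UGT72E2, a glucosyltransferase of lignin precursors, gave 2.49 ± 0.33, and UGT78D1, which decorates flavonols, -3.18 ± 0.40.

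Glutathione S-transferases, detoxifying enzymes, were split as well, with 6 of 11 tested genes higher in root, 4 higher in shoot and 1 neither way. The shares over all tested probe sets were 36.1% higher in root and 21.9% higher in shoot. GSTU20 had 1538, 1782 and 1578 in the Cs shoots and 167, 157 and 43.1 in the Cs roots, at -3.81 ± 0.49 (adjusted p = 2.88e-05), with Cs root 3 lowest. GSTU18 and GSTL3 gave -2.74 ± 0.13 and -2.70 ± 0.13, while GSTU28 gave 2.61 ± 0.36 and GSTU26 2.33 ± 0.15. Members of the same tau class, whose names begin with GSTU, thus lay on both sides. Of 13 tested cytochrome P450 genes 4 were higher in root, 7 higher in shoot and 2 neither way, with CYP71B26 at -2.44 ± 0.41 and CYP71B23 at 1.86 ± 0.30. Of 11 tested sugar transporters 2 were higher in root, 3 higher in shoot and 6 neither way, to be read beside the same shares. SWEET11, a sucrose exporter that feeds the phloem of leaves, had 911, 510.1 and 393 in shoots and 49.0, 39.3 and 52.1 in roots, at -3.33 ± 0.30 (adjusted p = 1e-06). TMT1, a sugar carrier of the vacuole membrane, gave 1.46 ± 0.26.

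Transport of mineral ions was thinly covered by probe sets that name 1 gene in the platform annotation used. Of the 37 loci of the potassium and caesium transport list 1 had such a probe set, so the others could not be read here. That gene, AT1G60160, had 62.3, 129 and 114 in the Cs shoots and 9.35, 18.5 and 12.5 in the Cs roots. The organs were apart, and the difference was -2.17 ± 0.32 (adjusted p = 9.32e-05). Of the 38 loci of the uptake list for nitrate, ammonium, phosphate, sulfate and iron 4 had such a probe set, and 3 were tested. AT2G26690, annotated as the NRT1/PTR family member NPF6.2, was higher in shoot at -3.33 ± 0.39, with shoots at 808, 357 and 441 and roots at 44.2, 49.8 and 29.1. The other 2, the iron-response regulator PYE at 0.28 and AT4G24730 at -0.18, were not called. Of 4 tested cation/H exchangers and glutamate receptor-like channels 2 were higher in shoot and 2 neither way. CHX20, an exchanger of guard cells, was at -1.51 ± 0.26. Over all tested probe sets 21.9% were called higher in shoot.

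Short lists of stress defence and genome maintenance genes, of 4 to 6 tested members each, are to be read beside the 58.0% called of all tested probe sets. Of 5 tested antioxidant enzymes TAPX and GR were higher in shoot, CCS was higher in root and 2 were not called. TAPX, the thylakoid ascorbate peroxidase, had 473, 466 and 488 in the Cs shoots and 5.05, 52.6 and 32.3 in the Cs roots, at -3.78 ± 0.38 (adjusted p = 2.8e-06). The glutathione reductase GR gave -2.01 ± 0.21 and CCS, the copper chaperone of superoxide dismutase, 0.68 ± 0.19. Of 6 tested DNA repair genes 1 was higher in root and 5 were not called. That gene was ATLIG4, the ligase of end joining, with 33.2, 31.0 and 35.8 in shoots and 71.9, 65.6 and 61.6 in roots, at 0.80 ± 0.17 (adjusted p = 0.00135). All 5 tested glucosinolate genes had negative values, of which 3 were called, AOP1 at -1.68 ± 0.17 being the largest. Of 4 tested anthocyanin and flavonol genes 1, UGT78D1, was higher in shoot and 3 were not called. UGT78D2, UF3GT and DFR each had Cs shoot 1 well above the other shoots, with DFR at 94.5 in Cs shoot 1.

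Of 9 tested MADS-box factors 3 were higher in root, 2 higher in shoot and 4 neither way, shares near the 36.1% and 21.9% of all tested probe sets. The lists of regulators below are also short, and their counts are to be read beside the same shares. AGL87 had 116, 121 and 114 in the Cs shoots and 1.05, 0.923 and 0.826 in the Cs roots, at -3.42 ± 0.15 (adjusted p = 5.66e-09). AGL24, a promoter of flowering, gave -2.62 ± 0.21, while AGL42, known from the root quiescent centre, gave 2.82 ± 0.27 and AGL21 2.27 ± 0.22. In these 4 genes the lower organ was near the bottom of the signal scale and the organs did not overlap. Of 6 tested WRKY factors 4 were higher in root, led by WRKY6 at 1.51 ± 0.18, and WRKY20 was higher in shoot at -0.47 ± 0.16. Of 10 tested bHLH factors 2 were higher in root, 2 higher in shoot and 6 neither way, with bHLH115 and bHLH104, both tied to the iron response, at 0.97 ± 0.18 and 0.90 ± 0.15. WRKY and bHLH differences were thus smaller than those of the MADS-box genes named. Of 4 tested bZIP factors 3 were higher in root, led by bZIP44 at 2.09 ± 0.35, and both tested Aux/IAA repressors were higher in shoot, IAA29 at -2.08 ± 0.34 and IAA18 at -1.08 ± 0.15. Of 7 tested RALF-like peptides 3 were higher in root, 2 higher in shoot and 2 neither way, with RALFL22 at 2.21 ± 0.18 and RALFL34 at -1.32 ± 0.19. RALF-like peptides signal at the cell surface through receptor kinases. Of 7 tested tetraspanins 3 were higher in root and 4 neither way, with TET8 at 1.59 ± 0.20. Of 5 tested serine carboxypeptidase-like genes 1 was higher in root, 1 higher in shoot and 3 neither way.

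**Figure D3:**
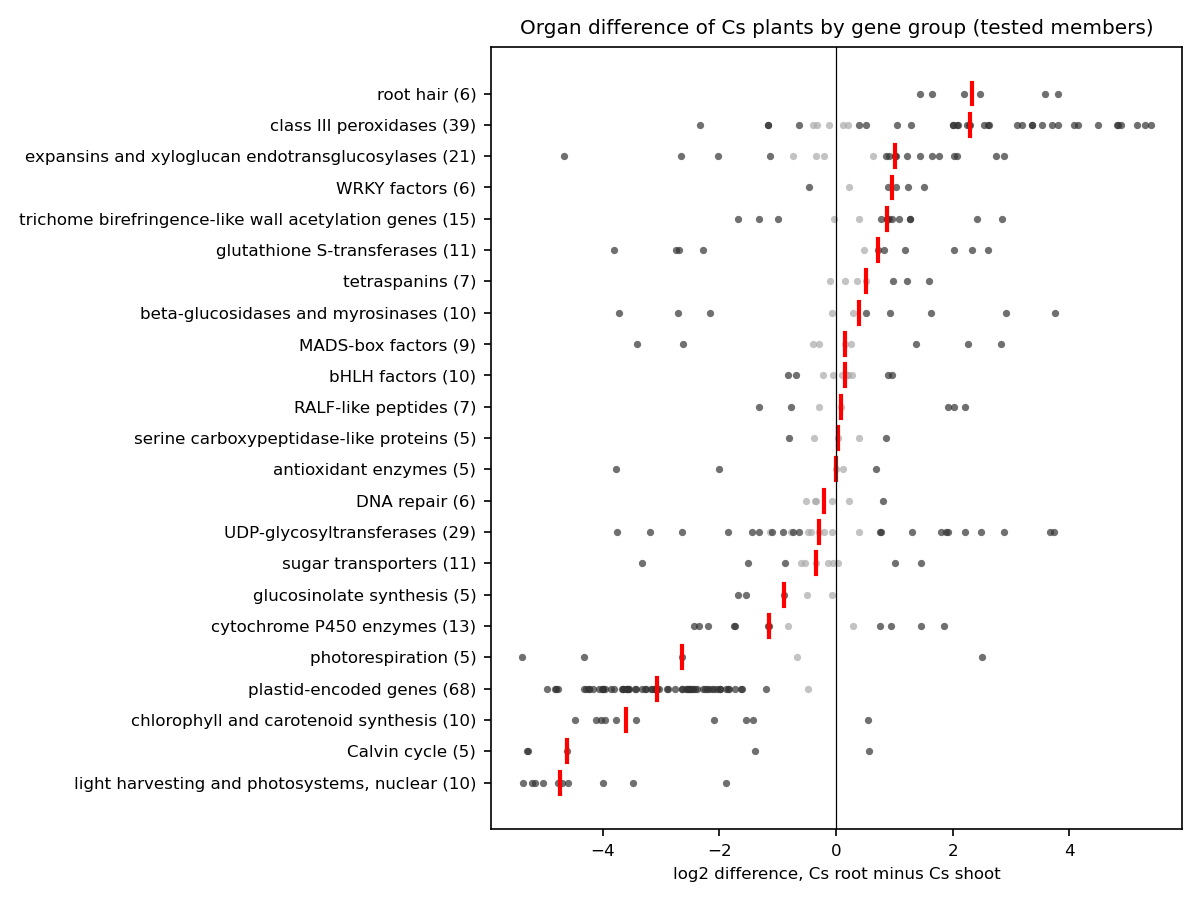
Log2 difference, Cs root minus Cs shoot, of each tested member of the gene groups with at least 5 tested members (number in brackets), dark where called and grey where not, with the group median in red. Photosynthetic groups lie left of 0 (light harvesting at -4.74, plastid-encoded genes at -3.08), root hair genes (2.33) and class III peroxidases (2.29) lie right of it, and most enzyme families spread to both sides.

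Transcripts typical of the other organ were followed on each Cs array. Shoot-type probe sets were the 296 at least 16-fold higher in control shoot than in control root, and root-type probe sets the 108 at least 16-fold higher in control root. The Cs arrays took no part in that choice, but the control values below did. All 296 and all 108 were called in the same direction in Cs plants, among 58.0% called of all tested probe sets. Probe sets picked for so large a difference in control plants would mostly be called in any case, so that count is not evidence. On Cs roots 1, 2 and 3 the median shoot-type signal was 2.39%, 5.89% and 1.62% of the mean Cs shoot signal. On the control roots it was 3.11%, 1.77% and 2.02%. Cs root 2 thus stood above the other 5 root arrays, and the interquartile range over its 296 probe sets was 4.23% to 8.60%. It was the highest Cs root in 269 of the 296 (90.9%), against 29.7% of all tested probe sets.

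The shoot-type genes were also followed by group. For the 8 shoot-type light-harvesting and photosystem genes the median percentages on Cs roots 1, 2 and 3 were 2.33%, 7.85% and 1.49%. For the 20 shoot-type plastid-encoded genes they were 4.55%, 11.6% and 2.23%, and for the 4 pigment synthesis genes 4.08%, 8.37% and 2.79%. For the 3 Calvin cycle genes they were 1.74%, 4.74% and 1.37%, and for the 2 photorespiration genes 2.85%, 4.79% and 2.16%. For the 2 stomata and cuticle genes they were 2.56%, 3.96% and 4.13%, but the 2 genes differed. AT2G45180, at 4.59%, 7.34% and 7.84%, was highest on Cs root 3. STOMAGEN, at 0.53%, 0.57% and 0.42%, was near the bottom of the scale on each Cs root, where levels carry no order. Nuclear transcripts alone gave 2.24%, 5.61% and 1.60%. The named genes that stood out most on Cs root 2 were ECS1, AT2G25510, AT5G03350, AT1G09310 and LHCB4.2. AT2G25510 had 93.8, 1345 and 111 in the Cs roots against 5822, 5880.2 and 5679.5 in the Cs shoots. STOMAGEN did not stand out on it, at 1.35, 1.47 and 1.07. The tested root hair genes and all 4 root markers, lists that share EXPA7 and EXPA18, were lowest of the Cs roots on the same array. Root-type probe sets as a whole were not. Cs root 2 was the lowest Cs root in 32 of the 108 (29.6%), against 32.3% of all tested probe sets. The part of the shoot-type transcripts on Cs root 2 in the organ differences was not tested.

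On Cs shoots 1, 2 and 3 the median root-type signal was 1.43%, 2.96% and 6.10% of the mean Cs root signal, and on the control shoots 1.24%, 2.12% and 3.29%. Cs shoot 3 was the highest of the 6 shoot arrays, with an interquartile range of 4.53% to 7.52%. It was the highest Cs shoot in 93 of the 108 probe sets (86.1%), against 32.5% of all tested probe sets. For the 8 root-type peroxidases the median percentages on Cs shoots 1, 2 and 3 were 0.65%, 2.41% and 4.89%. AT5G44380, AT3G13610, OSM34, AT3G05950 and AT5G26260 stood out most on Cs shoot 3. AT5G44380 had 5.29, 3.53 and 63.6 in the Cs shoots against 641, 1142 and 1221 in the Cs roots. Cs shoot 3 was the lowest Cs shoot in 4 of the 108 root-type probe sets (3.7%), against 30.5% of all tested probe sets. XTH19 at 27.2, 16.8 and 3.08 and AT3G54580 at 6.22, 14.7 and 1.94, higher in root but not root-type, were lowest on Cs shoot 3. Their values there were near the bottom of the scale, where levels carry no order. Over the shoot-type probe sets the median organ difference was -4.50 with all Cs arrays and -4.92 without Cs root 2 and Cs shoot 3. Over the root-type probe sets it was 4.33 and 4.70.

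**Figure D4:**
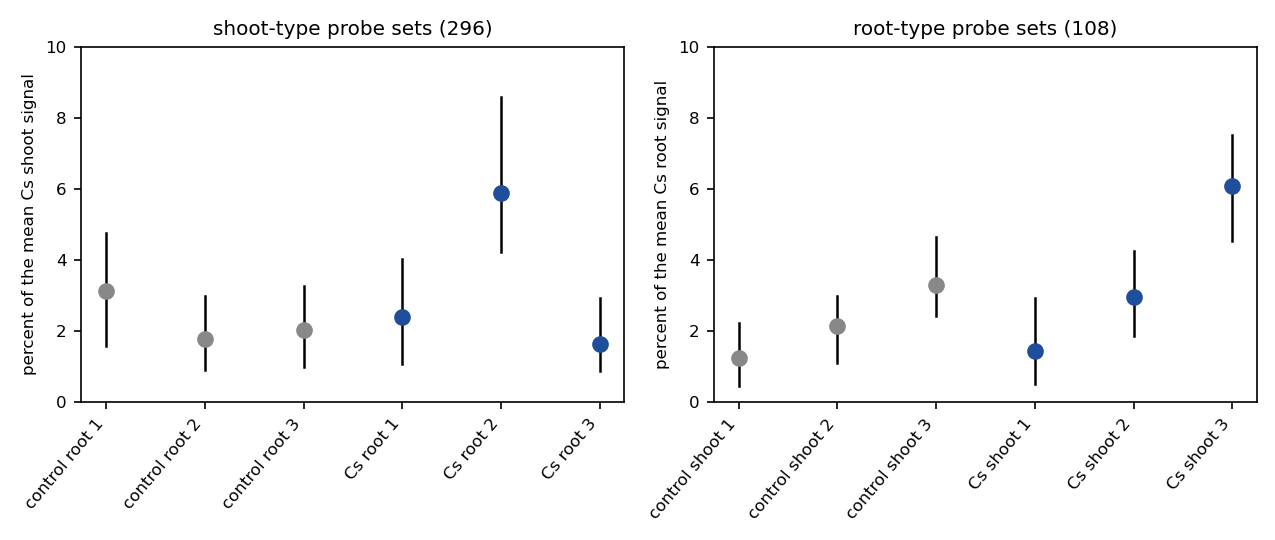
Left, the signal of 296 shoot-type probe sets on each root array, in percent of the mean Cs shoot signal; right, the signal of 108 root-type probe sets on each shoot array, in percent of the mean Cs root signal. Points are medians over probe sets and bars run from the lower to the upper quartile (grey control, blue Cs); Cs root 2 (5.89%) and Cs shoot 3 (6.10%) stand highest.

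The organ difference was largely shared with control plants. The same fit called 9350 probe sets (60.3%) between control root and control shoot, 38.0% of all tested higher in root and 22.3% higher in shoot. In all, 8085 were called in the same direction in both exposures, 4996 higher in root and 3089 higher in shoot. Another 913 were called only in Cs plants, 1263 only in control plants, and 2 in opposite directions, neither of which names 1 gene. The difference between the organ differences was tested in the same fit, and limma called 0 of 15508, with 341 at an unadjusted p under 0.05. Those counts of calls in 1 exposure alone therefore do not show that the exposures differ. In control plants PSAN differed by -5.80, PRK by -6.23, ECS1 by -7.83, AT4G30170 by 5.47, PYK10 by 2.85 and STOMAGEN by -4.44. For PSAN, PRK and ECS1 the difference was larger in size in control plants, and without Cs root 2 and Cs shoot 3 the Cs values were -5.97, -5.75 and -7.25. The median of the light-harvesting group was -4.74 in Cs plants and -5.15 in control plants, and that of the class III peroxidases 2.29 and 2.10.

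**Figure D5:**
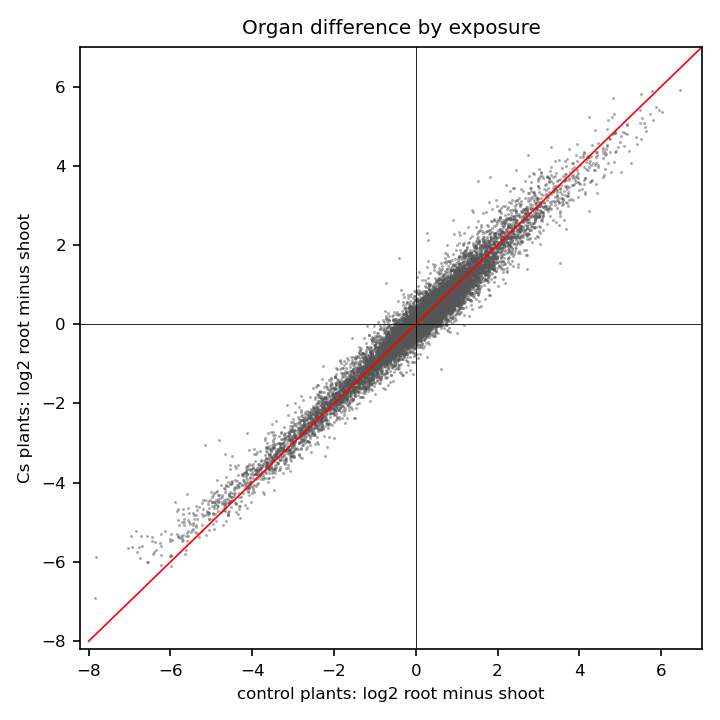
Log2 difference, root minus shoot, of each tested probe set in Cs plants (vertical) against control plants (horizontal), with the line of equal differences in red. The points follow the line closely, and 8085 of 15508 were called in the same direction in both.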

How the data were processed

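The deposited values are linear MAS5 intensities, made by the authors with MAS5, per the submitters' processing notes, which give no version. On every array their 2% trimmed mean lay near 100, and no further scaling was applied here. Background settings and presence calls are not stated in the sources used here. Of 22810 probe sets 64 were Affymetrix controls. Of the other 22746, 13513 name 1 gene in the platform annotation, 503 name several and 8730 are not listed there. Of the 13513, 13436 were found in RefSeq's TAIR10.1 gene table, used for names only. No coordinates or sequences are given, since the array's build is not stated in the sources used here.

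Intensities were taken as log2(signal + 11). Probe sets whose mean reached the 40th percentile in at least 1 organ (15508, of which 8458 name 1 gene) were fitted with limma 3.58.1 in R 4.3.3 (lmFit, eBayes with an intensity trend), with 4 group means over 12 arrays and 8 residual degrees of freedom. Contrasts were Cs root minus Cs shoot, the same in control plants, and their difference, with Benjamini-Hochberg adjustment over all tested probe sets at 0.05. The fit was tested on simulated data. A gene is read by its brightest probe set.

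Members, gene lists and tests were chosen with earlier results of these data known, and several lists were rewritten after the annotation was seen, so no list is independent evidence. Named genes were first the 12 largest differences in each direction among called probe sets of 1 gene with organs apart. Among the same probe sets, the 6 largest in each direction with a mean signal of at least 100 in both organs were added. The 4 largest called members of each list were also named, whether or not the organs were apart. Last came the 5 organ-type probe sets of 1 gene that stood out most on Cs root 2 and on Cs shoot 3. Every other list member could be named. No 2 arrays held identical values.

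Same-numbered Cs shoot and Cs root arrays deviated together from their group means, with correlations of 0.28, 0.15 and 0.19 over probe sets. Differently numbered Cs shoot and Cs root arrays gave -0.25 to 0.06, the highest being Cs root 2 with Cs shoot 3. The reported fit did not pair the arrays, and the numbers were used as a replicate block only in an alternative fit. Such a pairing comes from the data and not from a statement in the labels. Alternatives were the replicate block, other pseudocounts and filters, quantile normalization, centring arrays on their medians, array weights, a fit with no intensity trend, the Cs arrays alone, a 2-fold minimum, other limits for organ-type transcripts, and leaving out arrays.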

Additional observations from a re-analysis of the deposited data

How the results depend on the processing

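The organ difference of Cs plants kept its direction for all 128 named genes under the 14 settings in which single genes were followed, and 1768 of 1792 gene-by-setting values stayed on their side of the threshold. The 24 that did not belonged to 7 genes (AT1G14890, MYC4, TBL26, GLR3.3, SCPL34, bZIP58 and bZIP19). The count of called probe sets was 8891 and 9052 with a pseudocount 4 times smaller and with one of 44, 8945 after quantile normalization and 8432 after array-median centring. Without 1 array at a time it lay between 8146 and 9299, with 4992 to 5787 higher in root and 3138 to 3512 higher in shoot, and the named genes called numbered 124 to 126. The listed genes called numbered 265, and 254 to 260 without 1 Cs array. The replicate block gave 9624 calls over all 12 arrays and 8933 in the Cs arrays alone, called all 128 named genes, and moved no count of calls by over 1.5 times.

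Requiring the 40th percentile in both organs tested 11788 probe sets and called 6066, with 4003 higher in root and 2063 higher in shoot, since genes silent in 1 organ then drop out. Requiring at least 2-fold by limma's treat left 2757 calls, 1196 higher in root and 1561 higher in shoot. The counts of at least 16-fold calls depended on the pseudocount, with 253 higher in root and 391 higher in shoot at the smaller one and 22 and 103 at 44. Subtracting the level of the control arrays of the same organ left medians of 3.15% for shoot-type transcripts on Cs root 2 and 3.64% for root-type transcripts on Cs shoot 3. The other Cs roots were then at 0.022% and -0.48%, and the other Cs shoots at -0.68% and 0.46%. The test of the difference between exposures called 0 probe sets under all 23 settings run for it. Presence calls are not stated in the sources used here, so levels near the bottom of the scale carry no order.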

Other observations

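Cs shoot 1 stood apart from the other Cs shoots in several listed genes, and control shoot 1 did the same. SAG29, a sugar transporter of the SWEET family first found in ageing leaves, had signals of 165, 8.18 and 5.69 in the Cs shoots and 176, 3.75 and 24.3 in the control shoots. Its organ difference of -0.14 ± 0.89 was not called (adjusted p = 0.906). The anthocyanin gene UF3GT had 114, 23.3 and 38.5 in the Cs shoots and 232, 31.6 and 64.0 in the control shoots. XTH32 had 821, 248 and 279 and 847, 253 and 233, and TBL26 366, 71.2 and 57.8 and 307, 68.4 and 75.8. PORB and BGLU44 went the other way, PORB with 817, 3610.1 and 3394 and BGLU44 with 326, 1189 and 1222 in the control shoots. The labels do not say what the arrays numbered 1 share.

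Both probe sets called in opposite directions in Cs and control plants name no single gene. One had a mean signal of 1945 in the Cs shoots and 884 in the Cs roots, a difference of -1.13 ± 0.25 against 0.61 in control plants. The other had means of 29.7 and 69.3, a difference of 1.05 ± 0.26 against -0.74. The adjusted p of the difference between exposures was 1 in limma for both.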
